A study of Mus musculus with 6 samples.

Results

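The nuclear genome encodes most subunits of the mitochondrial respiratory chain, and 31 of these genes, chosen by name from the 32285 gene rows of the deposited count tables, were followed through 7 kinds of spleen cell. All 31 were found by symbol. They comprise 6 subunits of complex I, 4 of complex II, 4 of complex III, 9 of complex IV, 7 of complex V and cytochrome c (Cycs). Ndufa4, which was long listed with complex I, was placed with complex IV. The libraries hold splenocytes of wild-type C57BL/6 mice fed ND or MCDHFD over 7 weeks. MCDHFD is the diet with which the study made its steatohepatitis (MASH) model. The mice were 6 weeks old at the start, and the growth protocol names the diet MCDHFD where some sample titles shorten it. Each diet had 3 libraries of single-cell 10x Genomics data, and the abbreviations are not spelled out in the labels. Nothing in the labels says whether a library came from 1 mouse or from a pool, so the p-values measure the spread between libraries only.

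Respiration passes electrons from NADH through complex I, and from succinate through complex II, to coenzyme Q. Complex III hands them to cytochrome c, and complex IV gives them to oxygen. Complexes I, III and IV pump protons across the inner membrane, and complex V, the ATP synthase, uses the returning flow to make ATP. Complex II is built from nuclear genes alone and also works in the tricarboxylic acid (TCA) cycle, whereas the others combine nuclear subunits with 13 subunits made inside the mitochondrion. Resting lymphocytes rely largely on respiration, neutrophils largely on glycolysis, and red cell precursors need mitochondria for heme synthesis before they lose them.

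The transcription factor NRF1 and ETS-family factors such as GABPA are known regulators of these genes, and the sites below are shown because they are the letters searched for in the promoters. Promoters of 24 members were matched in RefSeq (GRCm38.p6). In the 250 bases before the start, GCGCANGCG (an NRF1 core, both strands) was present in 5 of 24 members, or 20.8%, against 8.33% of 16522 protein-coding genes. CCGGAAG (an ETS core, both strands) was also present in 5 of 24 members, or 20.8%, against 10.5%. CCAAT was present in 33.3% of members and 39.2% of protein-coding genes, and GGGCGG in 41.7% and 47.5%. Capitals mark the NRF1 or ETS letters in windows of 30 bases, all on the minus strand and read 5′ to 3′.
Cycs, chr6:50566612-50566641: ccatgctagctCGCATGCGCgcgcacaaac
Sdhd, chr9:50603910-50603939: ttcgctggggtGCGCACGCGcggtggcagc
Sdhd, chr9:50603878-50603907: accgtctcctgcCTTCCGGttcacgcttca
Cox6a1, chr5:115349102-115349131: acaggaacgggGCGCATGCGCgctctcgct
Cox6a1, chr5:115348959-115348988: cgtccccatttccgCTTCCGGcgcgccggt
Sdha, chr13:74350320-74350349: gcgtttacaggGCGCAGGCGcaccaccact
Atp5j, chr16:84835020-84835049: tagctgagggacCCGGAAGcacttaccctc
Atp5e, chr2:174464186-174464215: ctacggccacagCTTCCGGtagccgctcgg
Sdhd and Cox6a1 held both kinds of site. The first Cox6a1 run matches the NRF1 letters on either strand and counts as 2 overlapping matches, and further matches, of Sdha, Cox6a1, Atp5c1 and Ndufs3, are not shown. The start is that of RefSeq. In the GENCODE vM21 annotation the Atp5j window lies inside the Atp5j gene and touches 3 exons. The Sdha window shown touches 4 annotated exons, and the first Sdhd window and each Cox6a1 window 1. For Cycs and Sdhd a stretch of bases after the start was not found in an annotated transcript of the gene, so these starts are less certain. A match is a run of letters and not a measured binding site.

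Barcodes with at least 1000 UMIs (unique molecules) and at most 10% mitochondrial UMIs were taken as cells, which gave 31542 in all. The ND libraries held 6548, 3278 and 4962 cells and the MCDHFD libraries 6625, 6594 and 3535. In 2 libraries, replicate 2 of ND and replicate 3 of MCDHFD, the deposited barcodes had been filtered beforehand (3409 and 3807 barcodes, against 1114720 to 1345921). Another Cell Ranger version wrote these files, and their median mitochondrial shares were 0.569% and 1.68% against 3.73% to 3.96%. No pair of libraries shared more than 18 kept barcodes. Values of these 2 and of the other 4 libraries are given side by side.

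Cells were gated on marker UMIs: Cd79a (at least 2) for B cells, Cd3e with Cd8b1 or with Cd4 for T cells, Ncr1 without Cd3e for natural killer (NK) cells, Csf1r for monocytes and macrophages (mono/mac), Csf3r with S100a8 (at least 5) for neutrophils and Klf1 for erythroid cells. Each class had at least 25 cells in every library. The 6 markers of its own class were detected in every class and library. The mono/mac gate went against its name in part: neutrophil markers summed to 9714 to 31850 CPM (UMI counts scaled to 1e6 per class and library) there, above its own markers at 5813 to 9318, and up to 45.0% of its cells also met another gate. Erythroid markers also exceeded the mono/mac markers in that gate, at 13739 against 9318 CPM in ND replicate 3 and 7618 against 5813 CPM in MCDHFD replicate 3. In ND replicate 1 neutrophil markers exceeded the own markers of the B, CD8 T and CD4 T gates as well. The same held for the CD4 T gate in ND replicate 2 and MCDHFD replicate 3. In the neutrophil gate 33.5% to 52.6% of cells met another gate. The erythroid gate held only 25 to 67 cells per library, of 18088 to 63418 median UMIs, and 29.7% to 48.8% of them met another gate, most often that of B cells. Results with cells of 1 gate only are given for some of the comparisons.

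Erythroid cells carried the highest level of every complex. The 31 members together made up 15578, 16451 and 15986 CPM of erythroid UMIs in ND replicates 1 to 3, and 14524, 13961 and 16095 CPM in the MCDHFD libraries. In CD8 T cells the same sum was 6083, 7274 and 5596 CPM on ND and 4834, 4883 and 7237 CPM on MCDHFD. No erythroid value overlapped the 4249 to 9819 CPM spanned by the other 6 classes. The ratio of the erythroid sum to that of another class, taken within each library, was 2.54 ± 0.30 for B cells (SD, n = 6), 2.63 ± 0.33 for CD8 T cells, 2.51 ± 0.37 for CD4 T cells, 2.09 ± 0.33 for NK cells, 2.12 ± 0.23 for the mono/mac gate and 2.82 ± 0.43 for neutrophils.

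**Figure D1:**
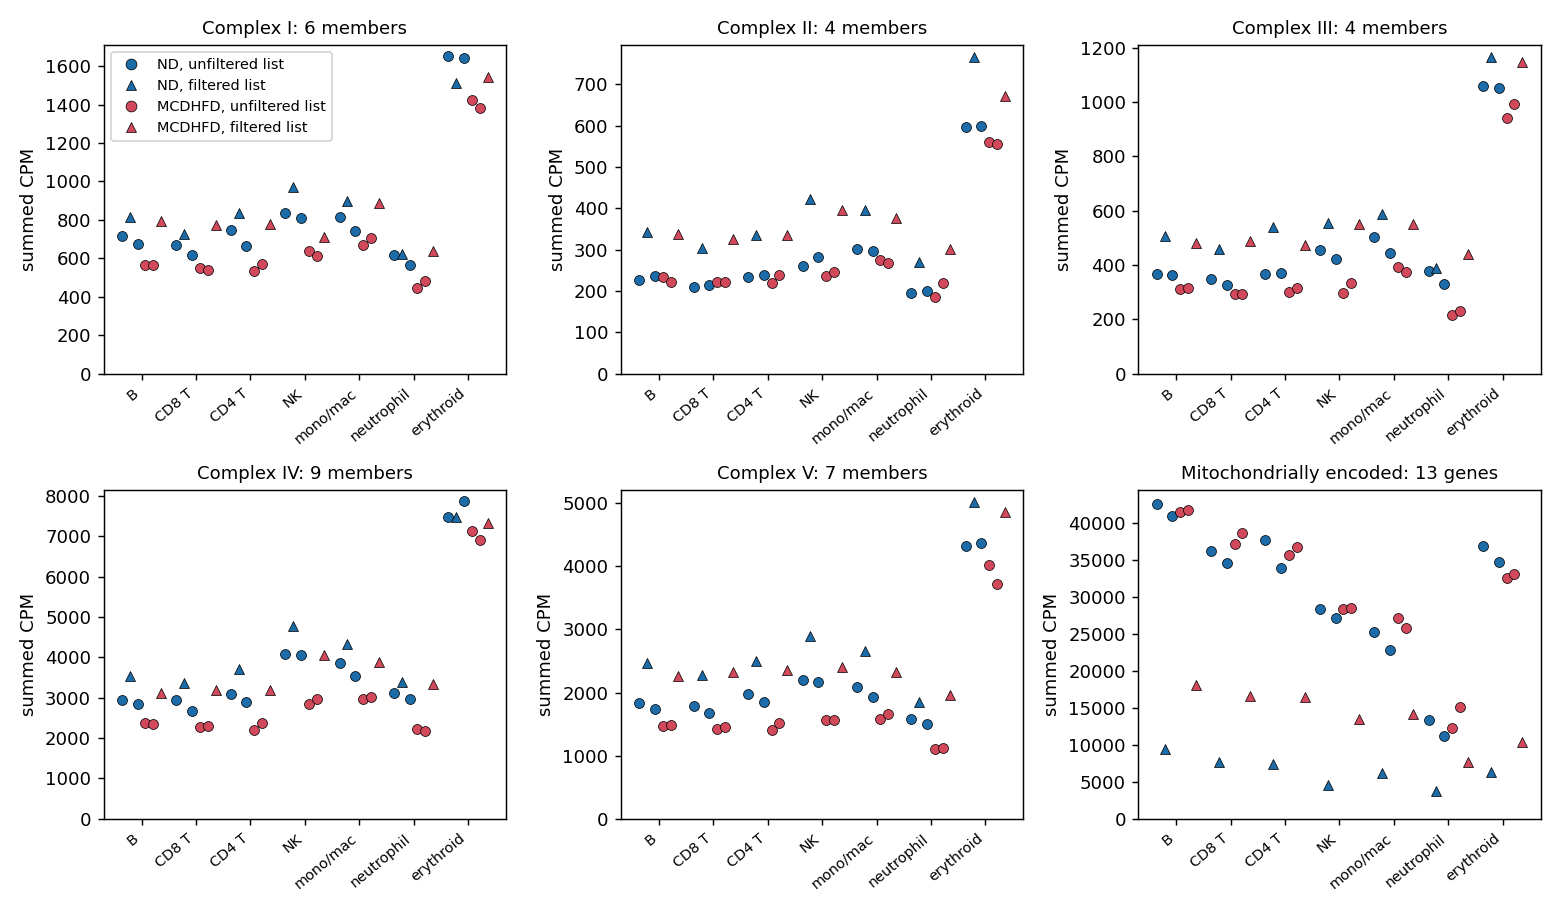
Summed CPM (y axis, from 0) of the members of complexes I to V and of the 13 mitochondrially encoded genes in each cell class, 1 point per library. Circles are libraries with unfiltered barcode lists and triangles those with filtered lists, in blue for ND and red for MCDHFD. Erythroid points lie above all others for complexes I to V, while the mitochondrially encoded sum was low in both libraries with filtered lists.

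Complex by complex, the erythroid excess over CD8 T cells was 2.39 ± 0.28 times for complex I, 2.54 ± 0.28 for complex II, 2.96 ± 0.41 for complex III, 2.69 ± 0.40 for complex IV and 2.45 ± 0.28 for complex V (SD, n = 6 libraries). Cytochrome c, the soluble carrier between complexes III and IV, was at 4.38 ± 0.49 times. Cycs was at 480, 520 and 452 CPM in erythroid cells on ND and at 440, 395 and 555 CPM on MCDHFD, against 117, 137, 97.9, 84.6, 90.4 and 132 CPM in CD8 T cells of the same libraries. Among the other 6 classes the sums lay close together: the order of NK and mono/mac, and that of the 3 lymphocyte gates, changed from library to library.

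CPM counts UMIs without regard to transcript length, so levels are compared between classes and not between genes. In each complex the member with the highest mean CPM is described. Cox8a, a small structural subunit of cytochrome c oxidase (complex IV), was at 1039 to 1341 CPM in erythroid cells and at 363 to 594 CPM in CD8 T cells. Atp5e, the epsilon subunit of the ATP synthase rotor stalk, was at 726 to 991 CPM in erythroid cells, which overlapped its 495 to 991 CPM in NK cells. Uqcrb, a subunit of complex III, was at 328 to 458 CPM in erythroid cells and 112 to 155 CPM in CD8 T cells. Ndufa2, an accessory subunit of complex I, was at 326 to 406 CPM against 189 to 234 CPM. Sdha, the flavoprotein of complex II that oxidises succinate, was at 119 to 171 CPM in erythroid cells and 82.7 to 113 CPM in CD8 T cells.

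Each class was then set against the mean of the other 6 in 1 edgeR quasi-likelihood model with library as a block. A gene was called with Benjamini-Hochberg adjusted p under 0.05 over all 12318 genes tested and a difference of at least 2-fold. In erythroid cells 25 of 31 members were called higher and 0 lower, where 20.4% of all genes were called higher and 31% lower. All 31 members were higher at adjusted p under 0.05 alone, where 36.3% of all genes were higher and 45.8% lower. The members' median log2 difference was 1.21, against -0.23 over all genes. The count was 26 with cells of 1 gate only and 26 among the libraries with unfiltered lists.

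The largest erythroid differences fell on members of different complexes. Sdhd, the membrane anchor of complex II, was higher by a log2 difference of 2.08 (SE 0.07, adjusted p = 2.4e-25). Ndufv1, the complex I subunit that takes electrons from NADH, followed at 1.96 (SE 0.07), Cycs at 1.89 (SE 0.07), Atp5b, the catalytic beta subunit of ATP synthase, at 1.83 (SE 0.05), and Uqcrc1, a core protein of complex III, at 1.65 (SE 0.07). Sdhd was at 222, 255 and 208 CPM in erythroid cells on ND and 210, 207 and 226 CPM on MCDHFD, against 29.2 to 62.4 CPM in CD8 T cells. Ndufv1 was at 113 to 202 CPM in erythroid cells and 26.0 to 57.1 CPM in CD8 T cells. The 6 members that missed the 2-fold limit were Sdha (0.40), Atp5e (0.46), Ndufa1 (0.52), Ndufa2 (0.68), Cox4i1 (0.75) and Sdhb (0.94). Complex II held both the largest value, Sdhd, and the smallest, Sdha.

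**Figure D2:**
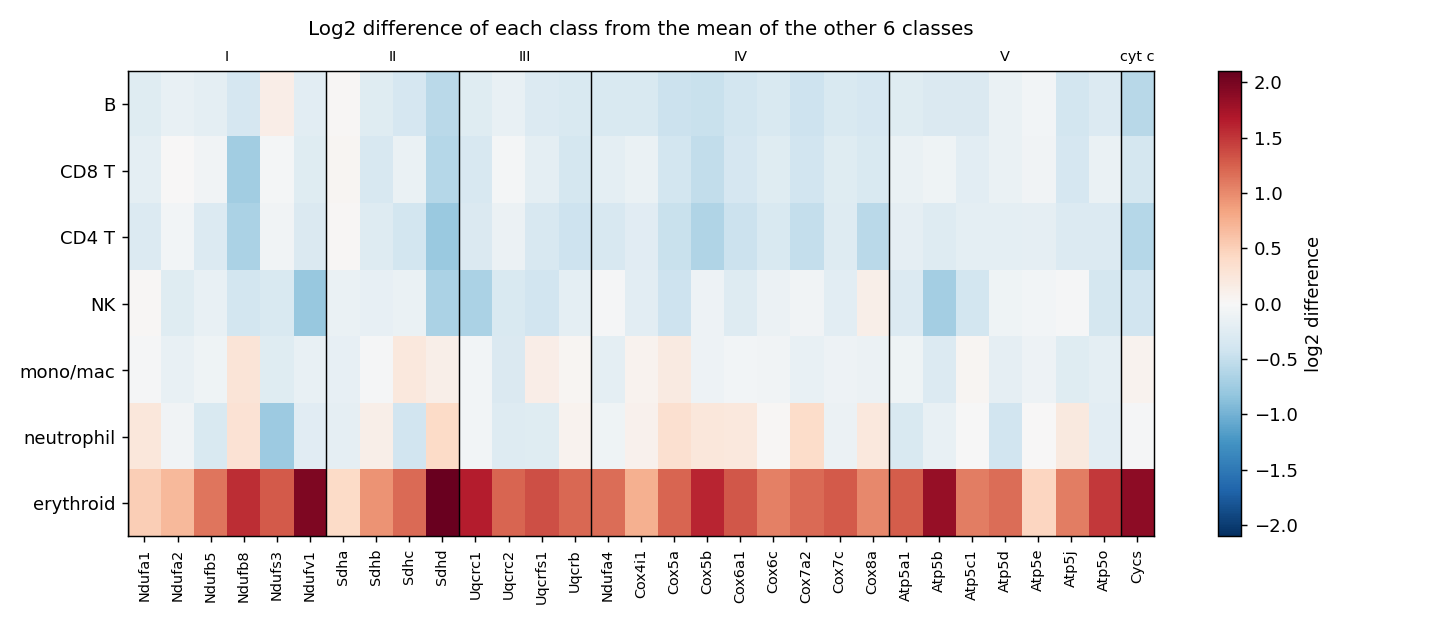
Log2 difference of each class from the mean of the other 6 (colour, red higher and blue lower) for the 31 members (columns, grouped by complex). The erythroid row is red throughout, from 0.40 for Sdha to 2.08 for Sdhd, and no other row reaches 1 in either direction.

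None of the 31 members was called at 2-fold in any other class. The shares of all genes called higher and lower were 9.08% and 10.5% in B cells, 8.16% and 12.8% in CD8 T cells, 8.15% and 10.7% in CD4 T cells, 8.63% and 7.66% in NK cells, 15.8% and 3.68% in the mono/mac gate and 19.3% and 13.6% in neutrophils. At adjusted p under 0.05 without the fold limit, 28 members were lower in B cells, 22 in CD8 T cells, 28 in CD4 T cells and 19 in NK cells, with 1 higher in NK cells. Over all genes 28.4%, 29.7%, 27.6% and 22.8% were lower at this threshold in the same order, and 34.8%, 32.6%, 29.5% and 21.8% higher. Each class is set against a mean that includes the erythroid cells. The mono/mac gate had 11 lower and 3 higher, and neutrophils 11 lower and 9 higher. These counts lay near the shares of all genes in neutrophils (36.6% lower and 34.4% higher), and in the mono/mac gate for the lower ones (32.8% lower and 30.4% higher). In neutrophils 5 of the 9 complex IV members were higher and 0 lower, with a median log2 difference of 0.21, while complexes I, III and V had medians of -0.16, -0.15 and -0.16.

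Other genes of the pathway, from lists also chosen by name, showed where the erythroid difference extended. The other complex I subunits had 17 of 30 called higher, those of complex III 4 of 5, those of complex IV 2 of 3 and those of complex V 9 of 11, with 0 lower in all 4 lists. TCA cycle enzymes had 12 of 17 higher (median 1.10), and assembly factors, which build the complexes, 14 of 46 higher and 1 lower (median 0.77). In contrast, 0 of the 13 mitochondrially encoded subunits were called, and their median was 0.00. They passed adjusted p under 0.05 in both directions, 3 higher and 2 lower, with mt-Nd1 at 0.57 and mt-Nd5 at -0.40 as the largest each way.

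Neutrophils showed another arrangement. Glycolysis genes had 12 of 19 called higher and 1 lower there (median 1.499), among them Hk2, a hexokinase, at a log2 difference of 3.19, and Pgam1, a phosphoglycerate mutase, at 2.01. Pfkl, a phosphofructokinase subunit, was at -0.16 and was not called. All 13 mitochondrially encoded genes were lower at adjusted p under 0.05 (median -0.82), and mt-Nd2, at -1.11, was the 1 that passed 2-fold. Assembly factors had 9 of 46 lower and 1 higher. The 31 members stayed near the mean of the classes (median -0.03). The summed level of neutrophil markers in this gate was 103301 to 225617 CPM, and the part of that share in these values was not tested.

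**Figure D3:**
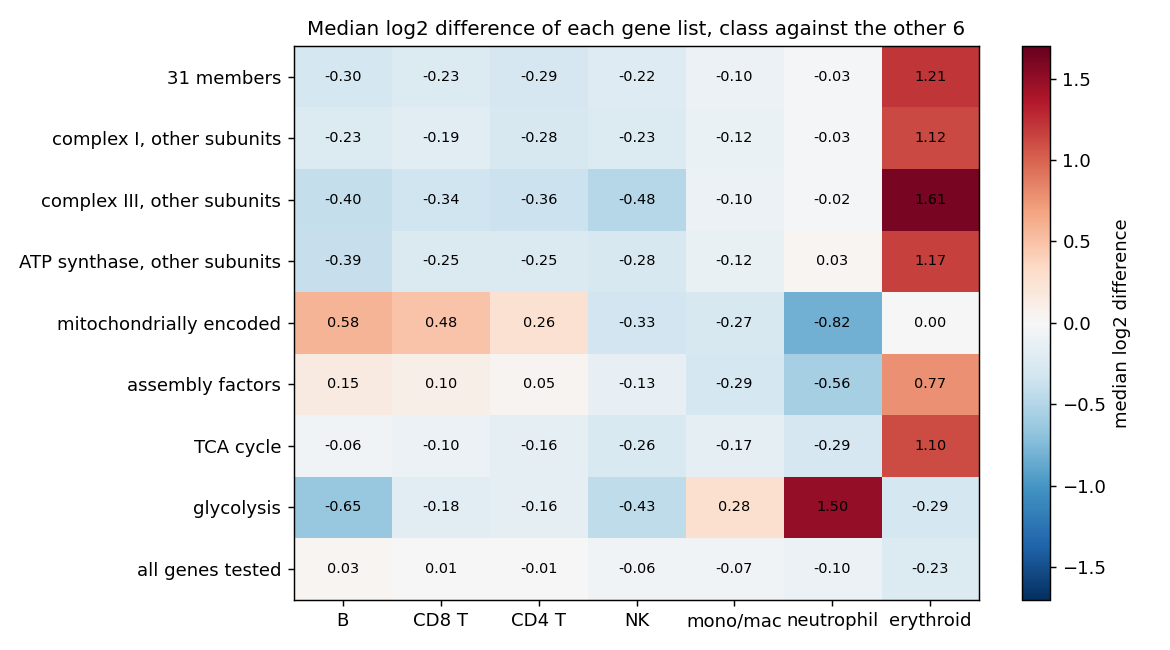
Median log2 difference (colour and printed value) of the members, of other gene lists of the pathway and of all genes tested, for each class against the other 6. In the erythroid column the subunit, assembly and TCA lists lie between 0.77 and 1.61 and the mitochondrially encoded list at 0.00. In the neutrophil column glycolysis is at 1.499 and the mitochondrially encoded list at -0.82.

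Isoforms of complex IV subunits that are known from other tissues were mostly near 0, and 2 of 8 passed the filter on low counts. In neutrophils 1 of the 2 was called higher and 0 lower, where 19.3% of all genes were called higher. The mono/mac gate had 1 higher at adjusted p under 0.05 alone. CD8 T and CD4 T cells each had 1 called lower, and NK cells 1 each way. In the diet comparison below, the 1 isoform tested in neutrophils was called lower on MCDHFD (log2 difference -1.66), where 7.32% of all genes were called. Cox6b2, known as a testis isoform, was at 187, 197 and 259 CPM in erythroid cells on ND and 239, 173 and 206 CPM on MCDHFD. In CD8 T cells it was at 1.47 to 10.8 CPM. The erythroid log2 difference was 5.47 (SE 0.17). Its annotated span (mm10 chr7:4751792-4753094, minus strand) overlaps no other gene. Cox6a2, known from heart and muscle, was singled out after its values were seen. It was at 5.60, 8.90 and 9.53 CPM in NK cells on ND and 8.84, 31.8 and 54.2 CPM on MCDHFD. It lies within Itgad on the opposite strand, and whether counting used strand is not given in the sources used here. The filter on low counts is set by class, so either isoform can pass it through the class where it is high. For Cox6a2 no class difference is therefore given.

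The diet comparison asked whether the members differed between ND and MCDHFD within each class. The main model held the form of the barcode list and the diet, fitted to UMIs summed per library and class. List form was put in the model with earlier results of these data known. Most members had lower values on MCDHFD in every class, by small amounts: the median log2 differences were -0.31 in B cells, -0.25 in CD8 T cells, -0.23 in CD4 T cells, -0.49 in NK cells, -0.25 in the mono/mac gate, -0.42 in neutrophils and -0.15 in erythroid cells. The medians over all genes lay between -0.01 and 0.05. Leaving out ND replicate 1 moved the CD8 T median to -0.12. Leaving out ND replicate 2 moved that of CD4 T cells to -0.35 and that of erythroid cells to -0.25, and leaving out MCDHFD replicate 3 moved the erythroid median to -0.25. With either of these filtered lists left out, the list form term takes up the other. The diet difference then rests on the libraries with unfiltered lists alone. With cells of 1 gate only the erythroid median was -0.07, that of B cells -0.25 and that of neutrophils -0.62. Values below 0 were found for 30, 27, 29, 30, 28, 30 and 29 of 31 members in the same order of classes.

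Few single members passed the test. With edgeR, 8 of 31 were called lower in NK cells, where 3.01% of all genes were called, 3 in neutrophils (7.32%) and 2 in CD4 T cells (1.77%). None was called in B cells (4.36%), CD8 T cells (0.513%), the mono/mac gate (0.959%) or erythroid cells (0.109%). None was called higher in any class. At unadjusted p under 0.05 there were 21 members in B cells, 14 in CD8 T cells, 9 in the mono/mac gate and 1 in erythroid cells. Of all genes, 23%, 13.6%, 15.7% and 6.64% passed at this level in the same order, so the erythroid count was below the background. DESeq2 called 15, 4, 0 and 0 members in these classes, all lower. Of all genes it called 1138, 180, 349 and 17, where edgeR called 602, 57, 107 and 10. With diet alone in the model no member was called in any class, and 0 to 11 of all genes per class. In NK cells 0 members were called without ND replicate 1, MCDHFD replicate 1 or MCDHFD replicate 2. Of all genes 60, 15 and 24 were called there in that order. Without ND replicate 3 the model called 3 members and 212 of all genes in NK cells.

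In NK cells the called members came from complexes I, III, IV and V and included cytochrome c. Uqcrb (mm10 chr13:66900617-66905378, minus strand) was at 247, 209 and 216 CPM on ND and 122, 156 and 157 CPM on MCDHFD. The diets did not overlap, and the log2 difference was -0.76 (SE 0.15, adjusted p = 0.021). Cycs was at 135, 203 and 142 CPM on ND and 95.8, 84.4 and 141 CPM on MCDHFD. Here MCDHFD replicate 3 reached into the ND range, and the difference was -0.68 (SE 0.14, adjusted p = 0.021). Atp5j, coupling factor 6 of the ATP synthase stalk, was at 325, 445 and 361 CPM on ND and 223, 238 and 325 CPM on MCDHFD, a difference of -0.62 (SE 0.13), and its ranges met at 325 CPM.

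Other called members in NK cells belonged to complexes I, IV and V. Ndufb5, an accessory subunit of complex I, was at 150, 176 and 160 CPM on ND and 110, 112 and 114 CPM on MCDHFD. Ndufa1, another accessory subunit, was at 216, 236 and 185 CPM and then 147, 142 and 157 CPM. Cox6c, a nuclear subunit of complex IV, was at 522, 548 and 507 CPM and then 353, 357 and 428 CPM. None of these overlapped between the diets, and the log2 differences were -0.59, -0.58 and -0.56. Atp5o, the oligomycin-sensitivity subunit of complex V, and Ndufb8, in the membrane arm of complex I, were the remaining called members, at -0.59 and -0.58. NK-gated sums rest on few cells, 37 in MCDHFD replicate 3, and on 158 to 4021 UMIs per member over all libraries. Neutrophil markers in the NK gate were at 10127, 10407 and 217 CPM on ND and 627, 966 and 228 CPM on MCDHFD, and NK markers at 10698 to 13488 and 8973 to 10482 CPM. Their part in the result was not tested.

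In CD4 T cells Atp5j was at 275, 328 and 258 CPM on ND and 183, 184 and 254 CPM on MCDHFD, a log2 difference of -0.49 (SE 0.10, adjusted p = 0.045). Uqcrb was at 171, 185 and 149 CPM and then 119, 125 and 119 CPM, a difference of -0.48 (SE 0.10, adjusted p = 0.047). Neither member overlapped between the diets. Cox6c (-0.48), Cox7c (-0.48), both complex IV, and Atp5e (-0.41) came next and were not called. CD4 T markers in this gate summed to 2611, 2713 and 2389 CPM on ND and 1966, 2025 and 2288 CPM on MCDHFD, without overlap, and neutrophil markers reached 5801 and 3651 CPM in ND replicates 1 and 2. Their part in the result was not tested. Leaving out any of the 4 libraries with unfiltered lists ended both CD4 T calls. Of all genes 52 and 130 were called without ND replicates 1 and 3, and 34 and 23 without MCDHFD replicates 1 and 2. The main model called 186.

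Neutrophils had Uqcrb at 205, 148 and 175 CPM on ND and 94.7, 98.96 and 136 CPM on MCDHFD, a log2 difference of -0.88 (SE 0.21, adjusted p = 0.041). Atp5j was at 290, 306 and 243 CPM and then 184, 166 and 230 CPM, a difference of -0.72 (SE 0.17). Cox6a1, a complex IV subunit, was at 183, 284 and 198 CPM and then 148, 127 and 216 CPM, a difference of -0.62 (SE 0.16), with overlap. Ndufa1 (-0.65) and Atp5o (-0.73) were next and not called. The neutrophil markers themselves summed to 225617, 179278 and 193959 CPM on ND and 142533, 103301 and 108448 CPM on MCDHFD, with no overlap. Markers of other classes in this gate also did not overlap: mono/mac markers were at 5871 to 8426 CPM on ND and 3788 to 5105 CPM on MCDHFD, erythroid markers at 41.0 to 1519 and 1752 to 14514 CPM, and NK markers at 171 to 299 and 44.6 to 143 CPM. Their part in the result was not tested. Leaving out any library with an unfiltered list ended the 3 calls. Of all genes 9 and 13 were called without ND replicates 1 and 3, and 595 and 254 without MCDHFD replicates 1 and 2. With cells of 1 gate only 16 members were called, and 1860 of all genes against 679 in the main model.

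**Figure D4:**
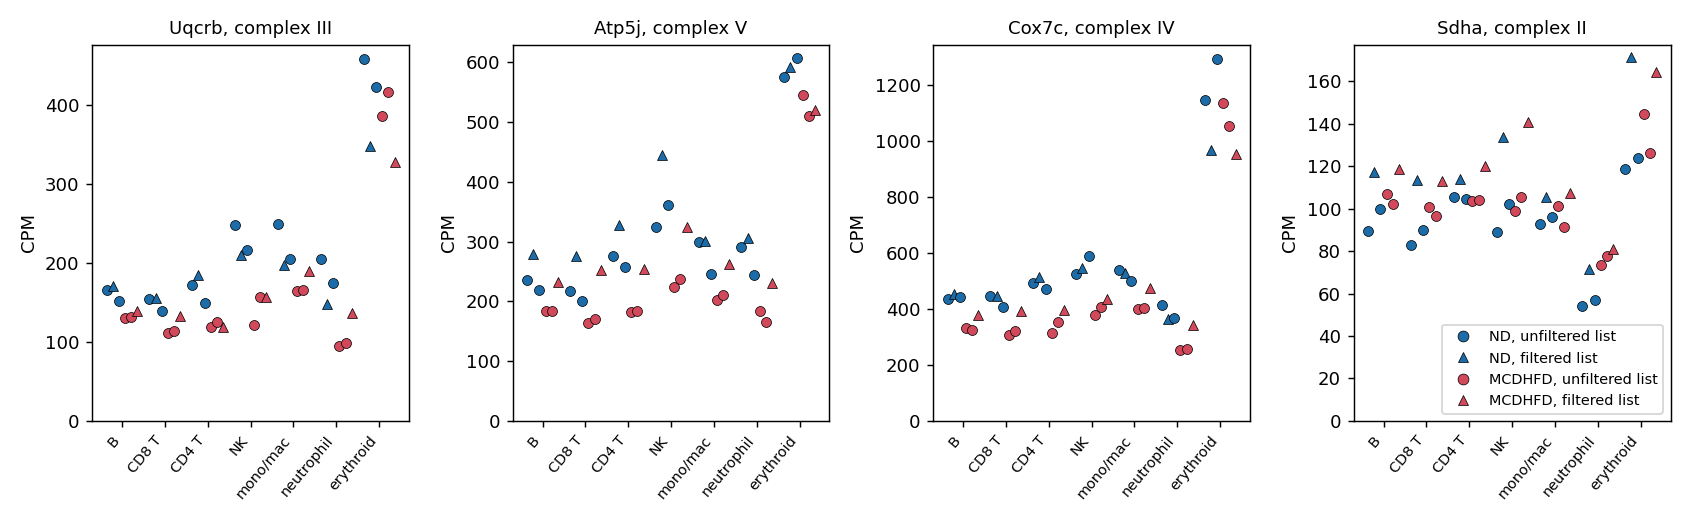
CPM (y axis, from 0) of Uqcrb, Atp5j, Cox7c and Sdha in each class, 1 point per library, with symbols and colours for list form and diet. Red points lie below blue points of the same form for Uqcrb, Atp5j and Cox7c in all 7 classes, and for Sdha in no class under both forms.

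In CD8 T cells, the population the series is named for, no member was called. Uqcrb was at 155, 155 and 139 CPM on ND and 112, 114 and 132 CPM on MCDHFD (log2 difference -0.41, SE 0.10, adjusted p = 0.140). Cox7c was at 445, 446 and 407 CPM and then 308, 321 and 393 CPM (-0.43, SE 0.12, adjusted p = 0.165). Both pairs of ranges were free of overlap. Cox6a1 (-0.32), Cox6c (-0.40) and Atp5e (-0.36) had the next smallest p. Neutrophil markers in the CD8 T gate summed to 8529, 1823 and 85.6 CPM on ND and 691, 460 and 914 CPM on MCDHFD. CD8 T markers were at 2594, 3618 and 2616 CPM and then 2349, 2241 and 3178 CPM. Erythroid markers reached 789 CPM in MCDHFD replicate 3, against 15.3 to 32.8 CPM in the other libraries. Their part in the result was not tested. In B cells the smallest p belonged to Cox7c, at 437, 452 and 441 CPM on ND and 330, 324 and 379 CPM on MCDHFD (-0.42, SE 0.09, adjusted p = 0.053), and after it to Atp5e (-0.36), Cox6a1 (-0.31), Ndufa4 (-0.38) and Atp5j (-0.35). Neutrophil markers in the B gate summed to 5025, 3412 and 235 CPM on ND and 1867, 786 and 1472 CPM on MCDHFD. B markers were at 4898, 6678 and 5051 CPM and then 4293, 4299 and 5166 CPM. The part of these markers in the B cell values was not tested.

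In the mono/mac gate Atp5o was at 192, 205 and 178 CPM on ND and 125, 125 and 176 CPM on MCDHFD (-0.47, SE 0.14, adjusted p = 0.179). Cycs (-0.61), Cox7a2 (-0.43), Sdhd (-0.40) and Cox8a (-0.37) followed. In erythroid cells Sdhb, the iron-sulphur subunit of complex II, was at 171, 232 and 168 CPM on ND and 127, 140 and 188 CPM on MCDHFD (-0.37, SE 0.13, adjusted p = 0.628). Atp5e (-0.24), Atp5j (-0.20), Ndufb8 (-0.24) and Sdhc (-0.24) followed.

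Counted without a model, by CPM ranges that did not overlap, 6 members were lower on MCDHFD in B cells, 2 in CD8 T cells, 5 in CD4 T cells, 10 in NK cells, 5 in the mono/mac gate, 7 in neutrophils and 4 in erythroid cells. The shares of all genes that were lower in this way were 5.63%, 2.54%, 5.38%, 5.86%, 6.17%, 8.11% and 3.73% in that order. Genes higher without overlap made up 6.17%, 5.77%, 4.61%, 8.89%, 4.87%, 14.2% and 4.74% of all genes in that order. Of the members only Sdha in neutrophils was higher in this way. It is named here after its values were seen, at 54.1, 71.6 and 56.9 CPM on ND and 73.6, 77.5 and 80.9 CPM on MCDHFD.

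By complex, complex II had medians of -0.11 in B cells, -0.01 in CD8 T cells, -0.01 in CD4 T cells, -0.24 in NK cells, -0.11 in the mono/mac gate, -0.20 in neutrophils and -0.18 in erythroid cells. Complex IV had medians of -0.33, -0.31, -0.31, -0.49, -0.32, -0.62 and -0.14 in the same order, and all 9 of its members were below 0 in each class. The complex IV median was the lower of the pair in 6 classes and the higher in erythroid cells. Summed in CD8 T cells, complex II was at 210, 304 and 213 CPM on ND and 221, 223 and 325 CPM on MCDHFD, and complex IV at 2952, 3361 and 2668 CPM and then 2264, 2290 and 3195 CPM. In NK cells the sums of complex I (838, 973 and 812 CPM, then 636, 611 and 710 CPM) and of complex IV (4077, 4771 and 4062 CPM, then 2850, 2960 and 4058 CPM) did not overlap between the diets. The difference between complexes was not tested.

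The difference was larger between the libraries with unfiltered lists than between those with filtered lists. This contrast was not tested, and the form of the list went together with Cell Ranger version and mitochondrial share. Between the libraries with unfiltered lists, 2 on each diet, the members' median log2 CPM difference was -0.37 in B cells, -0.37 in CD8 T cells, -0.35 in CD4 T cells, -0.57 in NK cells, -0.31 in the mono/mac gate, -0.60 in neutrophils and -0.25 in erythroid cells. Between the 2 libraries with filtered lists, 1 on each diet, it was -0.10, 0.04, -0.09, -0.37, -0.04, -0.13 and 0.04. In CD8 T cells 29 of 31 members were below 0 in the first comparison and 15 of 31 in the second. Tested among the unfiltered lists alone, 24 members were called lower in B cells (19.8% of all genes called), 3 in CD8 T cells (2.02%), 12 in CD4 T cells (5.65%), 22 in NK cells (10.3%), 0 in the mono/mac gate (0.176%), 12 in neutrophils (11.6%) and 0 in erythroid cells (0.0211%). MCDHFD replicates 1 and 2 resembled each other more than any other pair of the same diet (chi-square per degree of freedom 14.4 over genes, against 66.7 for ND replicates 1 and 3).

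**Figure D5:**
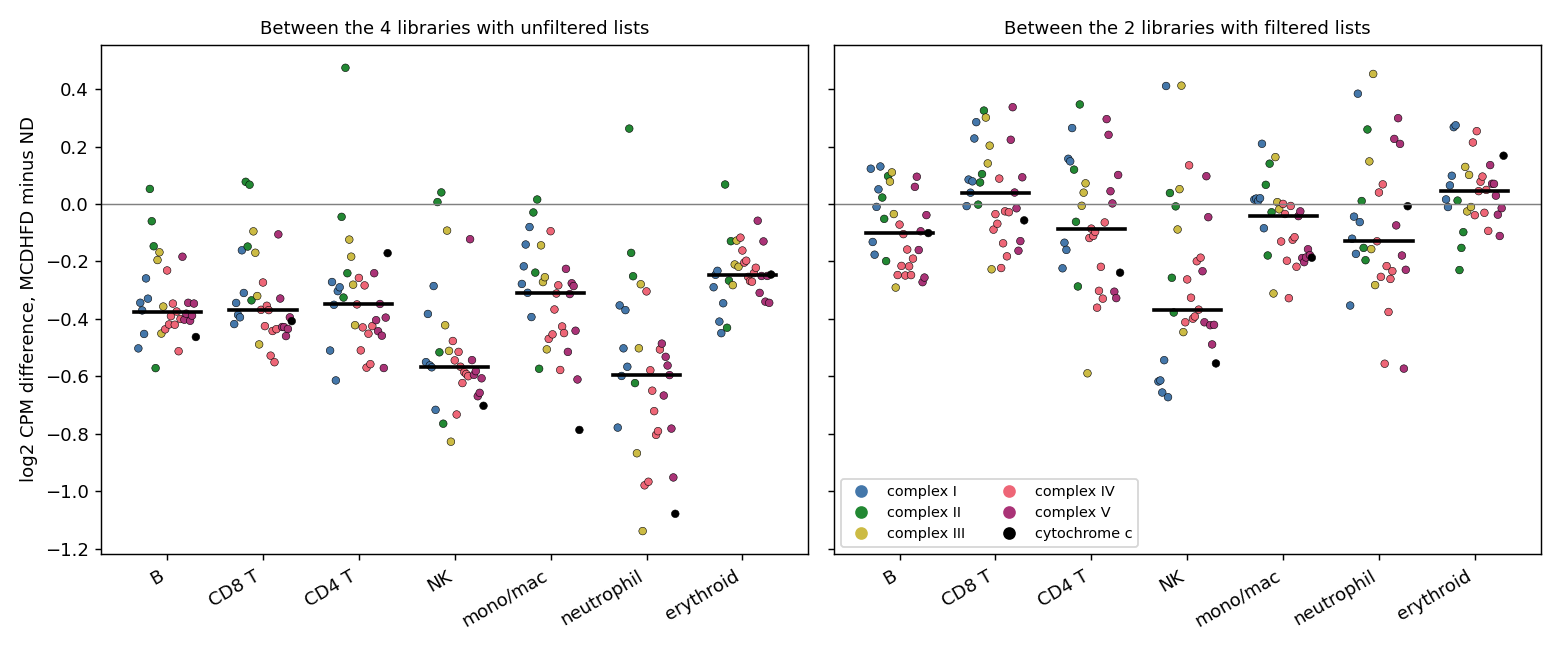
Log2 CPM difference of MCDHFD from ND (y axis) for the 31 members in each class, coloured by complex, with the median as a bar. Left, libraries with unfiltered lists (medians -0.25 to -0.60); right, the pair with filtered lists (medians -0.37 to 0.04).

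Transcript length moved with the difference. In CD4 T cells the 18 members with median annotated transcripts under 800 bases had a median of -0.33 and the 13 longer ones -0.15, and in CD8 T cells these were -0.30 and -0.11. Over the 31 members, Spearman's rho of length with the diet difference was 0.66 in CD4 T cells, 0.55 in CD8 T cells, 0.46 in B cells, 0.45 in neutrophils, 0.29 in erythroid cells, 0.26 in NK cells and 0.10 in the mono/mac gate. These are correlations across genes of the same libraries, given as a description. Other genes with short transcripts, of at least the level of the lowest member and without ribosomal protein genes, had medians of -0.16 in B cells, -0.12 in CD8 T cells, -0.13 in CD4 T cells, -0.24 in NK cells and -0.18 in neutrophils, where longer ones lay between -0.00197 and 0.0972. Ribosomal protein genes, themselves short, were at -0.15 in B cells, -0.16 in CD8 T cells, -0.000388 in CD4 T cells and -0.22 in NK cells. The part of transcript length in the result was not tested.

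For the mitochondrially encoded subunits the median log2 differences between the diets were 0.26 in B cells and 0.34 in CD8 T cells. They were 0.40 in CD4 T cells, 0.41 in NK cells, 0.47 in the mono/mac gate, 0.32 in neutrophils and 0.13 in erythroid cells. By edgeR 0 of 13 were called in any class, and 1 to 3 passed unadjusted p under 0.05 in each. Of all genes 23% passed that level in B cells, 13.6% in CD8 T cells, 15.7% in the mono/mac gate and 6.64% in erythroid cells. mt-Nd5, a complex I subunit, was at 371, 178 and 375 CPM on ND and 503, 482 and 515 CPM on MCDHFD in CD8 T cells (0.69, SE 0.22, adjusted p = 0.22). Summed over 13 genes, CD8 T cells held 36182, 7632 and 34579 CPM on ND and 37168, 38605 and 16610 CPM on MCDHFD. The nuclear sum divided by this sum was 0.168, 0.953 and 0.162 on ND and 0.130, 0.126 and 0.436 on MCDHFD. The rise in the mitochondrially encoded sum lay mostly between the filtered lists: its log2 difference was 1.12 there and 0.10 between the unfiltered lists in CD8 T cells, 0.95 and -0.00405 in B cells, and 1.15 and 0.02 in CD4 T cells. No test compared the mitochondrially encoded genes with the nuclear ones. In CD8 T cells the ratio was lower on MCDHFD within each form of list, while the values of the diets overlapped across forms.

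Further genes of the pathway gave these counts in NK cells, where the edgeR model with list form called the most members. Other subunits of complex V were called lower in 6 of 11, of complex I in 4 of 30, of complex III in 3 of 5 and of complex IV in 1 of 3, with 0 higher. Their medians were -0.54, -0.46, -0.64 and -0.51. In CD8 T cells 1 gene of these lists was called: Ndufa3, an accessory subunit of complex I, at 179, 294 and 178 CPM on ND and 124, 121 and 215 CPM on MCDHFD (-0.59, SE 0.10, adjusted p = 0.039). Ndufa13 (-0.40) and Ndufs6 (-0.29) of complex I, Atp5k (-0.51), Atp5j2 (-0.44) and Atp5md (-0.36) of complex V, and Uqcrh (-0.27), Uqcrq (-0.30) and Uqcr10 (-0.27) of complex III had the smallest p of their lists there and were not called. Cox6b1 (-0.32), Cox7b (-0.28) and Cox7a2l (-0.26) gave the values for complex IV.

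Assembly factors had a median of -0.11 in CD8 T cells with 0 of 46 called, and Pet100 (-0.50, adjusted p = 0.066), Coa3 (-0.39) and Cox17 (-0.35), which serve complex IV assembly, had the smallest p. TCA cycle enzymes had a median of -0.01 with 0 of 17 called (Suclg1 -0.29, Fh1 -0.33, Pdha1 -0.19). Regulators of mitochondrial biogenesis had a median of 0.06 with 0 of 15 called. Among them Ppargc1b, a coactivator, was at 26.4, 22.1 and 28.9 CPM on ND and 42.4, 36.2 and 27.7 CPM on MCDHFD (0.37, SE 0.12, adjusted p = 0.22), and Nrf1 (0.17) and Esrra (0.21) followed. Glycolysis genes had a median of -0.07 with 0 of 19 called (Pfkl 0.40, Hk2 -1.03, Pgam1 -0.31). By edgeR at unadjusted p under 0.05 these 4 lists had 10, 1, 1 and 3 genes, where 13.6% of all genes passed.

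Whether the diet difference of CD8 T cells was their own was tested as an interaction. Against CD4 T cells 0 of 31 members differed (0.582% of all genes called, 0 members at unadjusted p under 0.05), and the differences in log2 change ran from -0.16 to 0.16. The smallest p belonged to Atp5j (0.15, SE 0.08, adjusted p = 0.56), Sdhb (0.16, SE 0.09), Ndufa1 (0.13), Uqcrc1 (0.14) and Ndufs3 (0.11). Against B cells 0 of 31 differed (2.58% of all genes called, 0 members at unadjusted p under 0.05), with differences from -0.08 to 0.22. Sdhc (0.22, SE 0.11, adjusted p = 0.39), Uqcrfs1 (0.15, SE 0.07), Sdhd (0.21, SE 0.11), Atp5b (0.12) and Uqcrc1 (0.13) led by p. A p that misses the threshold does not show that the classes responded alike.

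Trnp1, the gene in the series title, was at 4.44, 7.37 and 3.70 CPM in CD8 T cells on ND and 44.1, 70.8 and 168.5 CPM on MCDHFD (log2 difference 3.98, SE 0.25). CD8 T cells with a Trnp1 UMI were compared with CD8 T cells without one, paired by total UMIs within each MCDHFD library (294, 380 and 239 pairs). By edgeR 0 of 31 members were called, against 0.42% of all genes. At unadjusted p under 0.05, 1 of 31 members passed, against 781 of all 10005 genes tested. DESeq2 also called 0. The members' median log2 difference was -0.01, against 0.01 over all genes. Sdhb was at 45.0, 52.3 and 106 CPM in cells with Trnp1 and at 58.6, 55.8 and 127 CPM in cells without (-0.20, SE 0.09, adjusted p = 0.59). Cox5b (-0.14), Ndufv1 (0.19), Sdhc (-0.16) and Uqcrfs1 (0.12) followed. A cell without a Trnp1 UMI may still express the gene, so the groups are separated incompletely.

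By annotation (GENCODE vM21, mm10), 14 of 31 members overlap no other gene, 6 overlap one on the same strand and 13 one on the opposite strand. Atp5j (chr16:84827866-84835625) overlaps Gabpa, and Uqcrb overlaps Gm10767, both on the opposite strand. Several members have processed pseudogenes, and whether UMIs were divided among copies was not tested.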

How the data were processed

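The deposited matrices hold raw UMI counts per gene and barcode, written by Cell Ranger per the file headers. The headers give version 9.0.1 for the 4 libraries with unfiltered lists and 7.2.0 for the 2 with filtered lists. The submitters' processing notes name Cell Ranger 9.1.0, which no header gives, Seurat 4.3.0 and mm10. The counting's use of strand is not given in the sources used here. Barcodes with at least 1000 UMIs and at most 10% mitochondrial UMIs were kept, gated on marker UMIs and summed per library and class, with at least 10 cells required. No doublet caller was run, and cells of 1 gate only served as an alternative. CPM scales each sum by all UMIs of that class in that library. Sums were tested with edgeR 4.0.16 (quasi-likelihood, TMM, Benjamini-Hochberg over all genes tested), in R 4.3.3, with DESeq2 1.42.0 as an alternative, after the fits were tested on simulated data. The diet model held list form and diet, the class model library and class, and the interaction model library, class, class by list form and class by diet. Named genes were those called, or the 5 of smallest p where fewer than 5 were called, up to 5 of largest difference between classes, and 3 of smallest p in CD8 T cells for other lists. Members, lists and the list form term of the diet model were chosen with earlier results of these data known.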

Additional observations from a re-analysis of the deposited data

How the results depend on the processing

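No tested single value of a named member changed sign under the alternatives run, and neither did the median diet difference of the 31 members in any class. Medians of single complexes and of the other lists were taken from the main model only. The median over all genes, which lay near 0, did change sign, in NK cells from 0.0467 to -0.00714 among the unfiltered lists alone. Between the filtered lists alone the medians of CD8 T and erythroid cells were 0.04, of the opposite sign, and the summed members in CD8 T cells differed by -0.00738 (log2), or by 0.00573 without mitochondrial genes in the total. Of the counts of called members, 167 kept within 1.5 times their value and 54 did not. The 167 include counts of 0 that stayed 0, among them all those of the interaction and Trnp1 comparisons, so the tally is no measure of how stable the calls were. For the diet comparison, diet alone and the replicate block each called 0 in CD4 T cells, NK cells and neutrophils. Of all genes diet alone called 0, 0 and 11 there, and the replicate block 0 in each. Same-numbered deviations in B cells correlated at 0.573, -0.657 and -0.631 for replicates 1, 2 and 3. ND replicate 2 and MCDHFD replicate 3, which have filtered lists, correlated at 0.752. Because these libraries bear different numbers, the correlations cannot decide whether the replicate numbers pair the libraries. Unfiltered lists alone called 24 in B cells, 3 in CD8 T cells, 12 in CD4 T cells, 22 in NK cells and 12 in neutrophils. DESeq2 called 15 in B cells, 4 in CD8 T cells, 5 in CD4 T cells and 9 in neutrophils, and size factors by RLE called 1 in CD4 T cells. Of all genes DESeq2 called 1138, 180, 256 and 788 in these classes, where the main model called 602, 57, 186 and 679. RLE called 174 of all genes in CD4 T cells. With no low count filter the counts were 2 in B cells, 0 in CD4 T cells, 1 in the mono/mac gate and 11 in neutrophils. Those over all genes were 952, 146, 1062 and 1780. Cells of 1 gate gave 1 in B cells, 2 in CD8 T cells, 5 in CD4 T cells, 12 in NK cells and 16 in neutrophils. Leaving out mitochondrial genes gave 14 in NK cells, where the main model called 8. Over all genes cells of 1 gate gave 871, 242, 415, 359 and 1860. Leaving out mitochondrial genes gave 337 of all genes in NK cells, against 263 in the main model. Leaving out 1 library at a time gave 0 to 24 in B cells, 0 to 3 in CD8 T cells, 0 to 11 in CD4 T cells, 0 to 21 in NK cells and 0 to 12 in neutrophils. In each of these classes the highest count came without ND replicate 2 or without MCDHFD replicate 3, the libraries with filtered lists. With either left out, the list form term takes up the other one. The diet difference then rests on the libraries with unfiltered lists, so these settings repeat that comparison and are not separate evidence. Of all genes 2511, 205, 577, 820 and 1160 were called in these classes without ND replicate 2. Without MCDHFD replicate 3 these were 2584, 221, 556, 834 and 1155. Between classes, dropping the fold limit gave 28 in B cells, 22 in CD8 T cells, 28 in CD4 T cells, 20 in NK cells, 14 in the mono/mac gate and 20 in neutrophils, and cells of 1 gate gave 1 in neutrophils. The erythroid count ran from 22 to 26 over left-out libraries. The interaction and Trnp1 counts were 0 under every alternative run. The causes of these moves were not tested. Erythroid and NK sums rest on as few as 25 and 37 cells per library.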
